A study of Mus musculus with 4 samples.

Results

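Natural killer (NK) cells read their targets through surface receptors, and 8 genes that encode such receptors or their subunits are described here across the leukocytes of mouse mammary tumors: *Klrd1*, *Klrc1*, *Klrc2*, *Klre1*, *Klrk1*, *Klrb1c*, *Ncr1* and *Klrg1*. They were chosen by name, as the NKG2 family, NKp46 and related NK receptors, and are 8 of the 32285 genes in the table of unique molecular identifiers (UMIs). A UMI tags 1 captured RNA molecule, so that a count of UMIs is a count of molecules and not of reads. The tumors grew from EO771 cells, a mouse mammary carcinoma line of the C57BL/6 strain, injected into a mammary gland of female C57BL/6 mice, and viable CD45+ cells were sorted from them for single-cell sequencing on the 10x Chromium platform. Of the 4 tumors, 2 came from Csf1rfl/fl mice, which carry floxed *Csf1r* alleles and no Cre, and 2 from Lyve1CreCsf1rfl/fl mice. In the second group, Cre under the *Lyve1* promoter deletes *Csf1r*, the receptor for macrophage growth factor, in cells that express LYVE-1, which are a subset of macrophages and also lymphatic endothelium. The age of the mice is not given in the sources used here, and both groups share the floxed alleles and the EO771 tumor. Cells of 1 Csf1rfl/fl and 1 Lyve1CreCsf1rfl/fl tumor were labelled with separate hashtag antibodies and captured together, in run 1 and again in run 2.

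NK cells and killer T cells weigh activating against inhibitory signals before they release cytotoxic granules. *Klrd1* encodes CD94, which reaches the surface as a partner of an NKG2 chain. With NKG2A, the product of *Klrc1*, it forms an inhibitory receptor, and with NKG2C, the product of *Klrc2*, an activating receptor, and both bind the nonclassical MHC molecule Qa-1, encoded by *H2-T23*. *Klrk1* encodes NKG2D, an activating receptor for stress-induced ligands of the RAE-1, H60 and MULT1 families, which signals through the adaptor DAP10, encoded by *Hcst*, or DAP12, encoded by *Tyrobp*. *Klrb1c* encodes NK1.1, the antigen by which NK cells of C57BL/6 mice are usually sorted, and *Ncr1* encodes NKp46, an activating receptor that signals through Fc receptor gamma, encoded by *Fcer1g*. *Klre1* encodes KLRE1, which pairs with KLRI1 or KLRI2, and *Klrg1* encodes an inhibitory receptor for cadherins that marks mature NK cells, effector T cells and a tissue subset of regulatory T (Treg) cells.

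The authors kept 28429 of the 53361 barcodes, with 4771 to 8699 cells and a median of 3721 to 4657 UMIs per cell in a tumor. Scrublet called between 10.7% and 27.9% of a tumor's cells doublets, most in the Csf1rfl/fl tumor of run 1, and 60 barcodes of kept cells occurred in both runs. The cells were put into gates by UMIs of marker genes, none of which was an NK receptor described here, so the levels of these receptors did not decide the gates. Marker genes of the gates do include *Klra4*, *Klra7*, *Klra8* and *Klra9*, which encode Ly49 receptors. The gates held 1678 NK cells, 2541 CD8 T cells, 151 γδ T cells, 617 conventional CD4 T cells and 1481 Treg cells, and 2510 cells that passed for more than 1 class, 79.5% of which Scrublet called doublets, were left out. In the NK gate, *Cd3e* was at 0.034 and *Gzma* at 95.1 UMIs per 10000 UMIs of the gate, while the γδ T gate had *Cd3e* at 3.81, *Trdc* at 8.38 and *Gzma* at 4.74. *Trdc* was also at 0.445 in the NK gate, with a UMI in 17.6% of its cells, against 0.787% of CD8 T cells. These genes, or others of the same cell types, set the gates, so their levels describe the gates and are no test of them. *Csf1r*, the targeted gene and itself a marker of the macrophage gate, was in that gate at 2.17 and 2.96 UMIs per 10000 in the Csf1rfl/fl tumors and at 1.76 and 2.28 in the Lyve1CreCsf1rfl/fl tumors, so that the genotypes overlapped. They did not overlap in the gate of monocytes and other phagocytes, at 1.92 and 1.90 against 1.18 and 1.30, or in the dendritic gate, at 0.415 and 0.295 against 0.16 and 0.202, where *Csf1r* was lower in both Lyve1CreCsf1rfl/fl tumors. The share of all genes without overlap was not computed for these gates. It was 17.7% in NK, 19.5% in CD8 T and 21.6% in Treg cells, so the lack of overlap shows no loss of *Csf1r* by itself. The macrophage gate held 534 and 347 against 175 and 87 cells, and *Lyve1* had 2, 1, 0 and 0 UMIs in it. Counts over the whole gene do not tell a deleted from an intact *Csf1r* allele.

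Of the 8 genes, 7 lie on chromosome 6 of GRCm38, most of them in the NK gene complex, and *Ncr1* lies on chromosome 7 from 4337724 to 4345164. *Klre1* (129577905 to 129585827) and *Klrd1* (129591782 to 129598775) are on the forward strand, and *Klrk1* (129610323 to 129623864), *Klrc2* (129647496 to 129660689) and *Klrc1* (129666015 to 129678973) follow on the reverse strand. *Klrb1c* (128778485 to 128789215) and *Klrg1* (122270596 to 122282882) lie farther off, also on the reverse strand. *Klrc1* and *Klrc2* are near-identical in part. Stretches of 50 bases were taken from the last 500 bases of the longest coding transcript of each gene, where this 3′ assay reads. Of the 451 stretches of *Klrc1*, 56.3% also occur in a *Klrc2* transcript. Of those of the other 7 genes, *Klrc2* among them, 0% occur in another gene. The split of UMIs between *Klrc1* and *Klrc2* is therefore uncertain.

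RefSeq (GRCm38.p6) holds promoter windows, from 250 bases before to 50 bases after the start, for 6 of the 8 genes, and none was at hand for *Klrd1* and *Klrg1*. The windows of *Klrc1* and *Klrc2*, whose levels ran differently between NK and CD8 T cells, and of *Ncr1*, which had its highest level in NK cells, are shown 5′ to 3′ on the strand of the gene. Capitals mark the letters TGTGGT or their complement ACCACA, the core bound by RUNX factors.
Klrc1, chr6:129678924-129679223, reverse strand: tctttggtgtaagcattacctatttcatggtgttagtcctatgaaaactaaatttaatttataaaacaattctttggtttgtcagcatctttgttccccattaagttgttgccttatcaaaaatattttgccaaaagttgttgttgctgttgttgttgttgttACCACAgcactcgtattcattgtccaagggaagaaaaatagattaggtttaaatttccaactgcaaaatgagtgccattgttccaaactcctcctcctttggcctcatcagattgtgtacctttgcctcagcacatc
Klrc2, chr6:129660547-129660846, reverse strand: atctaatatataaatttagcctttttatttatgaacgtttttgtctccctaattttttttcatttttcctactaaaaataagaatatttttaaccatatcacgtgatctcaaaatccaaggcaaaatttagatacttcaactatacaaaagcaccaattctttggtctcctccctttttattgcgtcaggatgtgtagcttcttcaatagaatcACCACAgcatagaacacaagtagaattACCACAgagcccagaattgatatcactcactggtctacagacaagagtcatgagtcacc
Ncr1, chr7:4337465-4337764, forward strand: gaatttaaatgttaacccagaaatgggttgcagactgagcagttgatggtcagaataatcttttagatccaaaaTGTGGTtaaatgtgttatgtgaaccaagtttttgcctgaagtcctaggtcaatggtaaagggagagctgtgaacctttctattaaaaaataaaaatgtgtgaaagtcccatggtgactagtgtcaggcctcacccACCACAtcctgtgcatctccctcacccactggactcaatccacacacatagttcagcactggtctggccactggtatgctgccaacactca
These letters were found on either strand in a window of all 6 genes and in 8 of their 9 windows, against 16.8% of all 32851 promoter windows of the same length. Of the other motifs searched on both strands, the T-box letters AGGTGT were in 0 of the 6 genes, against 13.7% of all windows, and the ETS letters GGAAGT in the window of 1, *Klrb1c*, against 23.8%. A match is a description of the letters only. Although part of the *Klrc1* transcript end occurs in a *Klrc2* transcript, their windows were identical at 50.3% of aligned positions. This was near the 48.5% of *Klrc1* and *Ncr1*.

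Levels are given as UMIs of a gene per 10000 UMIs of a gate, computed in each tumor, as the mean ± SD over the 4 tumors (n = 4). Shares of cells with a UMI are means over the tumors and depend on depth. Most are therefore also given after each cell was thinned to 2000 UMIs, with shallower cells left out. Neutrophils, which should lack these receptors, had a median of 2210 UMIs and served as the background. After thinning, 3104 of 5365 neutrophils, 1442 of 1678 NK cells and 2410 of 2541 CD8 T cells remained.

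**Figure D1:**
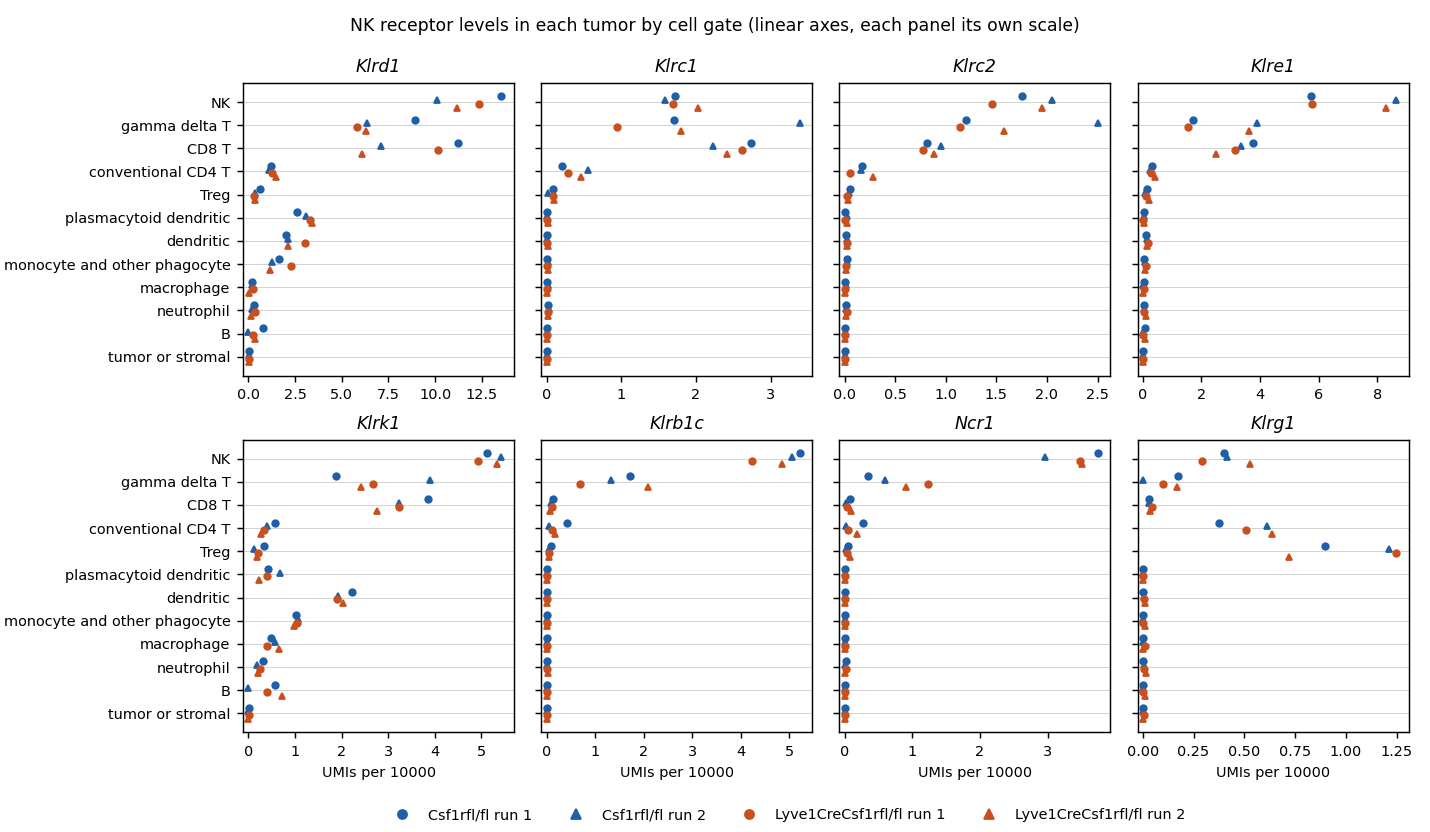
Level of each NK receptor gene, in UMIs per 10000 UMIs of a gate (linear x axes, a scale for each panel), in 12 cell gates (y axis), with a point for each tumor, blue for Csf1rfl/fl, orange for Lyve1CreCsf1rfl/fl, circles for run 1 and triangles for run 2. *Klrb1c* and *Ncr1* stand out in NK cells, *Klrg1* in Treg cells, and *Klrd1* and *Klrk1* also have levels in dendritic cells and in the gate of monocytes and other phagocytes.

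*Klrd1* had its highest level in NK cells. It was there at 13.6 and 10.1 UMIs per 10000 in the Csf1rfl/fl tumors of runs 1 and 2 and at 12.4 and 11.2 in the Lyve1CreCsf1rfl/fl tumors, a mean of 11.8 ± 1.49. CD8 T cells had 11.2, 7.11, 10.2 and 6.10 in the same order, a mean of 8.65 ± 2.44, and γδ T cells 6.84 ± 1.40. NK cells overlapped CD8 T cells and these overlapped γδ T cells, while NK and γδ T cells did not overlap. Plasmacytoid dendritic cells followed at 3.10 ± 0.37 and did not reach the lowest γδ T value of 5.80. A UMI of *Klrd1* was found in 90.9% of NK cells, 87.7% of CD8 T cells and 3.01% of neutrophils, and in 82.9%, 72.8% and 2.58% after thinning.

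*Klrc1*, for the inhibitory partner NKG2A, had its highest level in CD8 T cells, with 2.74 and 2.23 UMIs per 10000 in the Csf1rfl/fl tumors and 2.61 and 2.41 in the Lyve1CreCsf1rfl/fl tumors. NK cells had 1.72, 1.58, 1.70 and 2.02, all below the lowest CD8 T value. γδ T cells, at 1.96 ± 1.03, spanned both, with 151 cells in all and 17 in the smallest tumor. *Klrc2*, for the activating partner NKG2C, ran the other way, with 1.76, 2.05, 1.46 and 1.95 in NK cells against 0.813, 0.951, 0.774 and 0.879 in CD8 T cells, and again did not overlap between them. γδ T cells had *Klrc2* at 1.61 ± 0.63, and its range overlapped that of NK cells. Both genes were near the background in phagocytes, where 0.620% of cells in the gate of monocytes and other phagocytes and 0.519% of neutrophils had a *Klrc1* UMI. After thinning these shares were 0.176% and 0.582%.

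*Klre1* was at 5.74 and 8.63 UMIs per 10000 in the NK cells of the Csf1rfl/fl tumors and at 5.78 and 8.29 in those of the Lyve1CreCsf1rfl/fl tumors, so the spread followed the run. CD8 T cells had 3.19 ± 0.52 and γδ T cells 2.69 ± 1.24, which overlapped. *Klrk1*, for NKG2D, varied little among tumors in NK cells, with 5.12, 5.44, 4.94 and 5.34. It was at 3.27 ± 0.45 in CD8 T cells, 2.72 ± 0.85 in γδ T cells and 2.02 ± 0.15 in dendritic cells, and each of these ranges overlapped the next, with the highest γδ T value, 3.90, also above that of CD8 T cells.

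*Klrb1c* and *Ncr1* separated NK cells from all other gates. *Klrb1c* was at 5.21, 5.06, 4.22 and 4.84 UMIs per 10000 in NK cells, 1.45 ± 0.59 in γδ T cells and 0.102 ± 0.032 in CD8 T cells. *Ncr1* was at 3.74, 2.97, 3.48 and 3.51 in NK cells, 0.768 ± 0.388 in γδ T cells and 0.057 ± 0.028 in CD8 T cells. γδ T cells did not reach the NK range of either gene. A UMI was found in 81.7% of NK cells for *Klrb1c* and in 68.7% for *Ncr1*, against 0.284% and 0.279% of neutrophils. After thinning, these shares were 62.4% and 46.6% in NK cells and 0.107% and 0.148% in neutrophils.

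*Klrg1* had another order, with Treg cells first at 0.898 and 1.22 UMIs per 10000 in the Csf1rfl/fl tumors and 1.25 and 0.718 in the Lyve1CreCsf1rfl/fl tumors. Conventional CD4 T cells followed at 0.534 ± 0.119 and did not reach the lowest Treg value. NK cells, at 0.400, 0.417, 0.292 and 0.528, overlapped conventional CD4 T cells. In CD8 T cells it was at 0.0355 UMIs per 10000, and 1.48% of these cells had a UMI, against 27.7% of Treg cells, 14.1% of NK cells and 0.157% of neutrophils. After thinning, the shares were 0.802% of CD8 T cells, 18.3% of Treg cells, 7.45% of NK cells and 0.137% of neutrophils.

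The 4 comparisons between lymphocyte gates were tested on UMIs summed per tumor and gate, with the tumor as a block, with edgeR (quasi-likelihood test), and p-values were adjusted over all tested genes by the Benjamini-Hochberg method. A gene is called here at an adjusted p under 0.05. The plot of these folds shows them side by side.

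**Figure D2:**
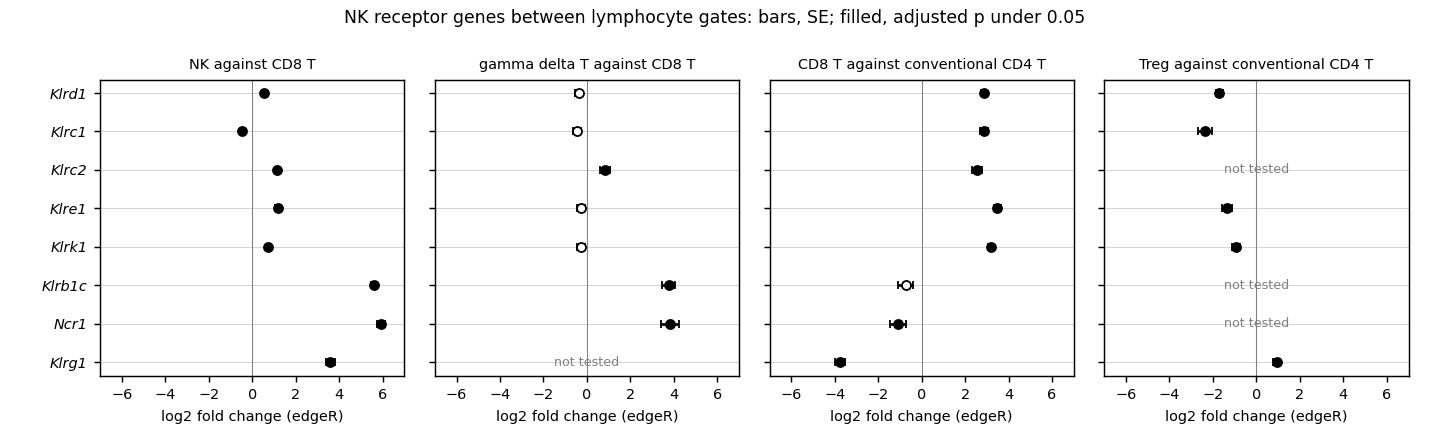
Log2 fold change from edgeR of each NK receptor gene (x axis) in 4 comparisons of lymphocyte gates, with bars for the standard error, filled points for an adjusted p under 0.05 and open points otherwise. *Klrc1* is the only gene of the 8 that was lower in NK than in CD8 T cells, and *Klrg1* is the only one called higher in Treg than in conventional CD4 T cells.

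Between NK and CD8 T cells, 7 of the 8 genes were higher in NK cells and 1, *Klrc1*, was lower, where 27.0% of the 9827 genes tested were called, 14.6% higher and 12.4% lower. *Ncr1* was 60.9-fold higher (log2 5.93, standard error 0.17, adjusted p = 5.17e-10) and *Klrb1c* 48.8-fold (log2 5.61, standard error 0.15, adjusted p = 3.31e-10). *Klrg1* was 12.02-fold higher, *Klre1* 2.29-fold, *Klrc2* 2.18-fold, *Klrk1* 1.66-fold and *Klrd1* 1.45-fold. *Klrc1* fell by 0.46 on the log2 scale (standard error 0.09, adjusted p = 0.00208), to 0.728-fold. All 8 differences had the same sign in 4 of 4 tumors and were called without each tumor in turn. Without called doublets *Ncr1* was higher by 6.90 and *Klrb1c* by 6.41 on the log2 scale. Without the tumor as a block, *Klrd1* had a log2 fold change of 0.49 and an adjusted p of 0.187.

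The adaptors and kinases of these receptors moved in both directions between NK and CD8 T cells. Of 17 adaptors and kinases tested, 8 were higher and 4 lower in NK cells, where 14.6% of all genes were higher and 12.4% lower, and the median log2 fold change of the list was 0.07, against -0.01 over all genes. *Tyrobp*, for DAP12, rose by 3.63 on the log2 scale, *Fcer1g* by 2.81, the kinase gene *Syk* by 2.55, *Plcg2*, for a phospholipase, by 2.56 and *Sh2d1b1*, for the adaptor EAT-2, by 4.41. Without the Csf1rfl/fl tumor of run 1 *Sh2d1b1* was higher by 5.24. Without called doublets the rises were larger, at 4.94 for *Tyrobp*, 3.81 for *Fcer1g*, 3.64 for *Syk*, 3.37 for *Plcg2* and 6.15 for *Sh2d1b1*. Genes of the T-cell receptor cascade were lower, with *Plcg1* at -5.56, *Lat* at -2.61, *Zap70* at -0.72 and *Lck* at -0.47. *Hcst*, the partner of NKG2D, was at 5.29 UMIs per 10000 in NK cells and 5.33 in CD8 T cells, and its log2 fold change, 0.07 with a standard error of 0.10, was not called (adjusted p = 0.657). Of the 3 inhibitory phosphatase genes, *Inpp5d* was called higher at 0.99, *Ptpn6* lower at -0.44 and *Ptpn11* was not called.

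Other NK receptor genes moved in both directions between NK and CD8 T cells, with 7 of 11 tested called higher and 3 lower, where 14.6% and 12.4% of all genes were. *Klrb1f*, *Klrb1a* and *Klrb1b*, neighbors of *Klrb1c* in the same gene family, were higher by 5.004, 5.22 and 4.49 on the log2 scale, and *Klrb1a* by 6.69 without called doublets. *Klrc3*, another NKG2 gene, was higher by 2.70, and *Klri2*, for a partner of KLRE1, by 1.53. *Cd226*, *Tigit* and *Cd96*, whose products share ligands of the nectin family, were lower at -1.91, -1.01 and -0.64.

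γδ T cells had more *Ncr1*, *Klrb1c* and *Klrc2* than CD8 T cells, and were not tested against NK cells. Of the 7 genes tested against CD8 T cells, 3 were higher and 0 lower, where 11.4% of 8719 genes were called, 4.51% higher and 6.92% lower, and *Klrg1* was not tested for want of counts. *Ncr1* was higher by 3.82 (standard error 0.42, adjusted p = 5.25e-17) and *Klrb1c* by 3.77 on the log2 scale, and both were called without each tumor. Without called doublets they were higher by 4.71 and 4.56. *Klrc2* was higher by 0.85 (standard error 0.22, adjusted p = 0.00287), but without the Csf1rfl/fl tumor of run 2 its adjusted p was 0.2. *Klrd1*, at -0.39, had an adjusted p of 0.0544 and *Klrc1*, at -0.46, 0.136. Without the Lyve1CreCsf1rfl/fl tumor of run 2 *Klrd1* was called at -0.55, and without the Csf1rfl/fl tumor of run 2 *Klrc1* was called at -0.93. *Klre1* and *Klrk1*, both at -0.27, were not called (adjusted p = 0.424 and 0.416). Of 10 other NK receptors tested, 3 were higher and 1 lower. *Klrb1a* and *Klrb1f* were called higher without each tumor. *Crtam*, higher by 1.68, was at 0.957 and not called without the Lyve1CreCsf1rfl/fl tumor of run 1 (adjusted p = 0.171), and at 2.27 without that of run 2. The lower one was *Klri2*, for a partner of KLRE1, at -1.48 (adjusted p = 0.000962), which was not called without the Lyve1CreCsf1rfl/fl tumor of run 1 (adjusted p = 0.0782) and was at -2.16 without that of run 2. Among the NK gate's own markers, *Gzma* was at 4.74 UMIs per 10000 in γδ T cells against 95.1 in NK cells, and *Klra8* at 0.169 against 3.51. The gate marker *Eomes* was closer, at 0.966 (0.342 to 1.58) in γδ T cells against 1.82 (1.23 to 2.64) in NK cells, so these ranges overlapped. In CD8 T cells *Eomes* was at 0.394. *Fcer1g* and *Tyrobp* were higher than in CD8 T cells, by 1.36 and 1.50 on the log2 scale, but without the tumor block *Fcer1g*, at 1.12, was not called (adjusted p = 0.0561). Without called doublets they were higher by 2.27 and 2.65.

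CD8 T cells differed from conventional CD4 T cells in the CD94, NKG2 and KLRE1 genes. Of the 8 genes, 5 were higher and 2 lower, where 21.6% of 9211 genes were called, 10.7% higher and 10.9% lower. *Klre1* was 11.1-fold higher (log2 3.48, standard error 0.16, adjusted p = 1.40e-12), *Klrk1* 9.08-fold, *Klrc1* 7.38-fold, *Klrd1* 7.27-fold and *Klrc2* 5.84-fold. *Klrg1* fell by 3.75 on the log2 scale (standard error 0.24, adjusted p = 2.16e-10). *Ncr1* was called lower at -1.08 (adjusted p = 0.0357), from 2.48% of CD4 T cells with a UMI against 1.67% of CD8 T cells, but it was lower in 3 of 4 tumors, was tested without only 2 of the tumors, and was not called by DESeq2 (adjusted p = 0.399), without the block or at a raised gate minimum. *Klrb1c*, at -0.74, was not called (adjusted p = 0.122), but it was called at -1.02 without the Csf1rfl/fl tumor of run 2 (adjusted p = 0.0209) and at -1.21 without called doublets (adjusted p = 0.0254), and was at -0.14 without the Csf1rfl/fl tumor of run 1. Of the other NK receptors, 6 of 9 tested were higher in CD8 T cells and 0 lower, among them *Crtam* at 4.11 and, without called doublets, 4.84, *Klri2* at 2.27 and *Cd244a*, for the receptor 2B4, at 2.11.

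Treg cells had less of the cytotoxic receptors and more *Klrg1* than conventional CD4 T cells. Of 5 genes tested, 1 was higher and 4 lower, where 6.90% of 8074 genes were called, 2.84% higher and 4.06% lower. *Klrg1* rose by 0.93 on the log2 scale (standard error 0.16, adjusted p = 0.000381). *Klrc1* fell by 2.37, *Klrd1* by 1.71, *Klre1* by 1.34 and *Klrk1* by 0.94, each in 4 of 4 tumors and without each tumor, and *Klrd1* was at -2.64 without called doublets. In Treg cells, conventional CD4 T cells and neutrophils, the background, *Klrk1* was at 0.21, 0.391 and 0.239 UMIs per 10000. *Klrd1* was at 0.405, 1.27 and 0.242 in the same order, *Klre1* at 0.127, 0.313 and 0.0506 and *Klrc1* at 0.0756, 0.375 and 0.0206. *Tyrobp*, *Hcst* and *Fcer1g* were also lower in Treg cells, at -0.65, -0.54 and -0.72. *Tyrobp* was at 1.42 in Treg and 2.18 in conventional CD4 T cells, against 30.3 in neutrophils. The part of background in these low values was not tested.

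Genes for the ligands of these receptors were found in tumor or stromal cells, in myeloid cells and in the lymphocytes themselves. *H2-T23*, for the ligand of the CD94 and NKG2 receptors, was at 2.74 to 8.17 UMIs per 10000 in the leukocyte gates, with the highest level in plasmacytoid dendritic cells, and at 0.975 in the 193 tumor or stromal cells that had passed the CD45 sort. *Raet1d* and *Raet1e*, for ligands of NKG2D, were at 0.408 and 0.581 in tumor or stromal cells and at most 0.049 in any leukocyte gate. *Ulbp1*, for the NKG2D ligand MULT1, was at 0.215 in tumor or stromal cells, 0.267 in CD8 T cells, 0.181 in NK cells, 0.166 in Treg cells and 0.136 in conventional CD4 T cells, and at most 0.066 in the other gates. It was higher in CD8 T than in conventional CD4 T cells by 1.11 on the log2 scale (standard error 0.24, adjusted p = 0.00162), in 4 of 4 tumors and without each tumor. Against CD8 T cells it was lower in γδ T cells at -2.07 (adjusted p = 0.0138), from 4 UMIs in γδ T cells, and was not called without the Csf1rfl/fl tumor of run 2 (adjusted p = 0.121), without the Lyve1CreCsf1rfl/fl tumor of run 2 (adjusted p = 0.123), without the block or by DESeq2, and was at -3.42 without the Lyve1CreCsf1rfl/fl tumor of run 1. In NK against CD8 T cells, at -0.47, it was not called (adjusted p = 0.0922), but was called at -0.66 without the Csf1rfl/fl tumor of run 1 (adjusted p = 0.0415) and at -0.59 without called doublets (adjusted p = 0.0375). *Cdh1*, for E-cadherin, a ligand of KLRG1, was at 1.47 in plasmacytoid dendritic cells and at most 0.239 in the other gates. *Cfp*, for properdin, a ligand reported for NKp46, was at 2.004 in macrophages and 0.057 in NK cells. Between NK and CD8 T cells *Cfp* was called lower at -0.99 on the log2 scale (standard error 0.26, adjusted p = 0.01435), in 4 of 4 tumors. Cells of these gates were sorted for CD45, so the tumor or stromal cells are those that passed the sort and not a sample of the tumor.

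*Klrd1* and *Klrk1* also had levels in dendritic cells and phagocytes that had little of the other receptors. *Klrd1* was at 2.58 and 3.11 UMIs per 10000 in the plasmacytoid dendritic cells of the Csf1rfl/fl tumors and at 3.29 and 3.42 in those of the Lyve1CreCsf1rfl/fl tumors. A UMI was found in 52.0% of these cells, or 35.3% after thinning, against 2.58% of neutrophils. The same cells had 1 UMI of *Klrb1c*, 0 of *Ncr1* and 0 of *Klrg1* in 579 cells, and *Nkg7*, a granule gene that was at 17.7 in NK cells, was at 0.086. In dendritic cells *Klrd1* was at 2.32 ± 0.49 and in the gate of monocytes and other phagocytes at 1.59 ± 0.50, against 0.157 in macrophages and 0.242 in neutrophils. *Klrk1* was at 2.23, 1.92, 1.90 and 2.03 in dendritic cells and at 1.03 ± 0.04 in the gate of monocytes and other phagocytes. It was at 0.527 in macrophages, which did not overlap that gate, and at 0.239 in neutrophils.

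**Figure D3:**
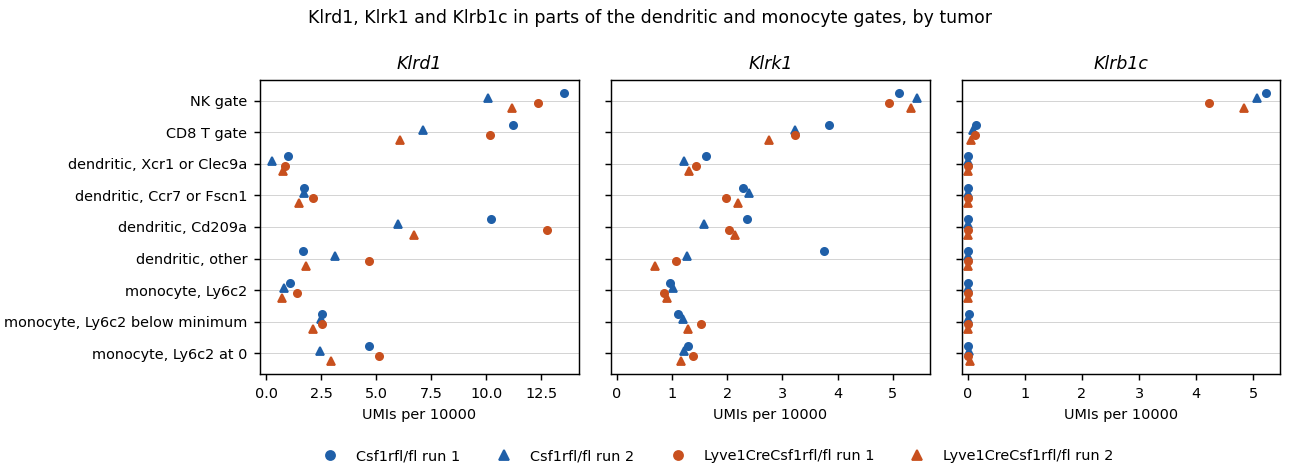
Levels of *Klrd1*, *Klrk1* and *Klrb1c* in UMIs per 10000 (linear x axes, a scale for each panel) in parts of the dendritic and monocyte gates, with the NK and CD8 T gates above for scale and a point for each tumor, colored as in the plot of all gates. *Klrd1* in dendritic cells with *Cd209a* reached the range of CD8 T cells, while *Klrb1c* was at or near 0 in every part.

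The dendritic and monocyte gates were split by markers after these values were seen, so the parts are described without a test. Dendritic cells with at least 2 UMIs of *Cd209a*, a marker of monocyte-derived and type 2 dendritic cells, had *Klrd1* at 10.2 and 5.99 UMIs per 10000 in the Csf1rfl/fl tumors and 12.8 and 6.71 in the Lyve1CreCsf1rfl/fl tumors. This range overlapped that of CD8 T cells. A *Klrd1* UMI was found in 75.5% of these 204 cells, whose median was 5976 UMIs, with *Nkg7* at 0.053 and 0 UMIs of *Klrb1c*. Dendritic cells with *Ccr7* or *Fscn1*, which mark migratory cells, had *Klrd1* at 1.77 ± 0.27, and those with *Xcr1* or *Clec9a*, which mark type 1 dendritic cells, at 0.719 ± 0.312. *Klrk1* had a flatter profile, at 2.21 ± 0.18 in cells with *Ccr7* or *Fscn1*, 2.03 ± 0.325 in those with *Cd209a* and 1.39 ± 0.177 in those with *Xcr1* or *Clec9a*. In the monocyte gate *Klrd1* was at 0.997 in the 4222 cells with at least 3 UMIs of *Ly6c2*, which marks classical monocytes, and at 4.65, 2.43, 5.15 and 2.93 in the 923 cells with none. *Klrk1* was at 0.932 and 1.26 in these parts. This gate holds the mononuclear phagocytes left after the dendritic and macrophage gates, so its cells without *Ly6c2* were not identified as monocytes. Beside these levels, *Gzma* was at 0.0857 UMIs per 10000 in the cells with *Cd209a* and 0.0914 in the cells of this gate without *Ly6c2*, against 95.1 in NK cells.

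Single cells often carried several of the receptors. After thinning to 2000 UMIs, NK cells had UMIs of a median of 4 of the 8 genes, and 84.2% had at least 3. CD8 T cells had a median of 2, with 44.2% at 3 or more and 8.76% with none, and γδ T cells a median of 2. Of conventional CD4 T cells 70.5% had none, of Treg cells 75.1% and of neutrophils 92.5%. In CD8 T cells with a *Klrd1* UMI, 44.1% had a *Klrc1* UMI, against 27.3% of those without, and 50.4% against 28.3% had a *Klre1* UMI. In NK cells *Klrc1* was found in 26.6% of cells with and 22.1% of cells without a *Klrd1* UMI. Of the cells with a *Klrc1* UMI, 82.8% of CD8 T cells and 85.2% of NK cells also had *Klrd1*. These shares count cells of all 4 tumors together and carry no test.

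CD8 T cells with a *Klrd1* UMI were then compared with those without, on UMIs summed per tumor. The gate held 2259 cells with and 282 without, and the cells with a UMI were deeper, with medians of 4650 to 5855 against 2932 to 3880 UMIs per tumor. Of 8821 genes tested, 3.70% were called, 1.84% higher and 1.86% lower in cells with *Klrd1*. Of the 5 receptor genes tested beside it, 3 were higher and 0 lower, with *Klre1* up by 1.51 on the log2 scale (standard error 0.14, adjusted p = 7.56e-08), *Klrc1* by 0.93 (standard error 0.15, adjusted p = 0.000247) and *Klrk1* by 0.69 (standard error 0.12, adjusted p = 0.000584). All 3 were higher in 4 of 4 tumors and called without each tumor. *Klrc2*, at 0.54, and *Klrb1c*, at 1.60, were not called (adjusted p = 0.123 and 0.237).

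**Figure D4:**
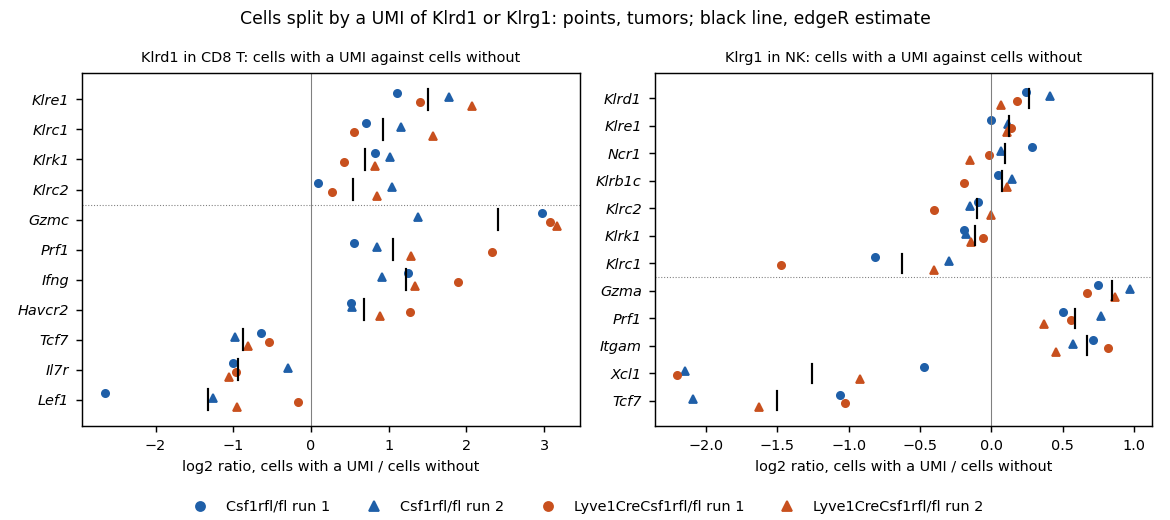
Log2 ratio of cells with to cells without a UMI of *Klrd1* in CD8 T cells (left) and of *Klrg1* in NK cells (right), for NK receptor genes above the dotted line and other genes below it. Points are tumors, colored as in the plot of all gates, and black lines are edgeR estimates, with *Klre1*, *Klrc1* and *Klrk1* above 0 in every tumor on the left.

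With all tumors, *Prf1*, *Ifng*, *Ccl3* and the granzyme genes named below were called higher with *Klrd1*. Named genes of resting, naive and memory T cells were called lower. Among 25 genes for CD8 effector function and exhaustion, 7 were higher and 7 lower, where 1.84% and 1.86% of all genes were, with a median log2 fold change of 0.14 against -0.01 over all genes. *Prf1*, for perforin, was higher by 1.06, *Ifng*, for interferon gamma, by 1.22 and *Ccl3*, for a chemokine, by 0.61, and *Il7r*, for the interleukin 7 receptor of resting T cells, was lower at -0.94. *Pf4*, a platelet and macrophage chemokine gene, rose by 2.67 with all tumors and by 3.65 without the Csf1rfl/fl tumor of run 2, and was not called without the Lyve1CreCsf1rfl/fl tumor of run 2 (adjusted p = 0.0685). *Pf4* was 1 of the 5 genes with the largest rise, and the other 4 were granzyme genes, with *Gzmd* up by 2.53, *Gzmc* by 2.40, *Gzmf* by 1.97 and *Gzme* by 1.96, and outside these *Gzma* rose by 1.43 and *Klri2* by 1.71. *Gzmd* was not called without the Lyve1CreCsf1rfl/fl tumor of run 2 (adjusted p = 0.0912), and *Gzme* was not called without either Lyve1CreCsf1rfl/fl tumor (adjusted p = 0.152 and 0.278) and not tested without the Csf1rfl/fl tumor of run 2. Without the Csf1rfl/fl tumor of run 2, *Gzmd* was at 4.71, *Gzmc* at 3.12 and *Gzmf* at 3.05. *Prf1*, *Ifng*, *Ccl3*, *Il7r*, *Gzmc*, *Gzmf*, *Gzma* and *Klri2* were called without each tumor. Without the tumor as a block only 14 genes of the split were called, 7 higher and 7 lower. Not all of these genes and *Klre1*, *Klrc1* and *Klrk1* can have kept the call there. *Tcf7* and *Lef1*, for transcription factors of naive and memory T cells, were lower at -0.87 and -1.33, but *Tcf7* had an adjusted p of 0.0626 without the Lyve1CreCsf1rfl/fl tumor of run 2 and *Lef1* lost its call without either tumor of run 2, with an adjusted p of up to 0.137. *Ccr7*, for a lymph node homing receptor, was lower at -1.04 and in 3 of 4 tumors, and *Slamf6*, of memory-like T cells, at -1.14. *Ccr7* was not called without either Lyve1CreCsf1rfl/fl tumor, nor *Slamf6* without either tumor of run 2, with adjusted p up to 0.439 and 0.268. The 5 genes with the largest fall were *Ldlrad4* at -2.05, *Itgae*, for the integrin chain CD103, at -2.03, *Trim30c* and *Tmem176a* at -1.97 each and *Dnase1l3*, for a nuclease, at -1.90. Without the Lyve1CreCsf1rfl/fl tumor of run 1 none of these 5 was called, with adjusted p from 0.0760 to 0.245. *Trim30c* and *Tmem176a* were not called without the Lyve1CreCsf1rfl/fl tumor of run 2 either, nor *Ldlrad4* and *Dnase1l3* without the Csf1rfl/fl tumor of run 2, nor *Ldlrad4* without that of run 1. Without called doublets *Trim30c* was at -2.99 and *Tmem176a* at -2.93. *Gzmb*, at 0.52, *Havcr2*, for the inhibitory receptor TIM-3, at 0.68, and *Tnfrsf9*, for 4-1BB, at 0.61, were each called with all tumors and lost the call without 2 of the 4 tumors, with adjusted p up to 0.142, 0.115 and 0.101. In cells of 2000 to 6000 UMIs, 73 genes were called in place of 326, and *Gzmf*, at 0.71, *Ccl3*, at 0.44, *Gzmb*, at 0.47, *Tnfrsf9*, at 0.40, *Ccr7*, at -1.15, and *Slamf6*, at -1.11, lost their calls, with adjusted p from 0.0802 to 0.473, while *Lef1* was at -1.94. *Prf1* and *Gzma* are marker genes of the NK gate and not of the CD8 T gate. Of the 2 neutrophil and 5 phagocyte markers, 1 was called higher and 0 lower, and their sums were 2.30 to 5.14 and 4.64 to 7.26 UMIs per 10000 in cells with *Klrd1*, against 2.72 to 5.84 and 4.56 to 6.31 in cells without. Their part in the result was not tested.

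NK cells were split in the same way by *Klrg1*, with 233 cells with a UMI and 1445 without, and 42 cells with a UMI in the smallest tumor. Of 7290 genes, 1.28% were called, 0.549% higher and 0.727% lower. Of the 7 receptor genes tested, *Klrd1* was higher by 0.26 (standard error 0.07, adjusted p = 0.0485) and *Klrc1* lower at -0.63 (standard error 0.14, adjusted p = 0.0225), and the other 5 lay between -0.11 and 0.12 and were not called. *Klrd1* lost its call without any 1 of the tumors. *Klrc1* lost it without the Csf1rfl/fl tumor of run 1, at -0.56, and without the Lyve1CreCsf1rfl/fl tumor of run 1, at -0.50, and was at -0.46 (adjusted p = 0.347) in cells of 2000 to 6000 UMIs.

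Of 23 genes listed for NK maturation, 5 were higher and 4 lower with *Klrg1*, where 0.549% and 0.727% of all genes were. The list was not split into genes of mature and of less mature cells. *Gzma*, for granzyme A, rose by 0.85 on the log2 scale (standard error 0.05, adjusted p = 6.81e-12), *Prf1* by 0.58 and *Gzmb* by 0.47. *Xcl1*, for a chemokine that draws dendritic cells, fell by 1.26 and *Tcf7* by 1.50. *Cma1*, for a mast cell protease, had the largest rise among the genes of 1 direction in every tumor, at 1.57. These 6 were called without each tumor. Without the tumor as a block only 2 genes of the split were called, 1 higher and 1 lower, so most of the 6 lost the call there. *Gzmb* was at 0.25 (adjusted p = 0.132) in cells of 2000 to 6000 UMIs. *Itgam* and *Cx3cr1*, of mature NK cells, were higher at 0.67 and 1.31, and *Il7r* lower at -2.47, each called with all tumors. *Il7r* lost its call without 2 of the tumors in turn and *Itgam* and *Cx3cr1* without 3, with adjusted p up to 0.0900, 0.136 and 0.279. *Gzma* and *Prf1* are marker genes of the NK gate. In cells of 2000 to 6000 UMIs *Cma1* was higher by 2.19 and *Cx3cr1* by 2.10. *E2f8*, *Emilin2* and *Abi3*, the others of the 5 genes with the largest rise, at 1.33, 1.17 and 1.07, were not called without 3, 4 and 4 of the 4 tumors in turn, with adjusted p up to 0.426, 0.154 and 0.260. The 5 genes with the largest fall were *Acod1*, known for activated myeloid cells, at -3.26, *Prss2*, for a trypsin, at -2.69, *Ccl1*, for a chemokine, at -2.68, *Il7r* and *Tcrg-C4*, a γ chain constant region, at -2.44. *Acod1* and *Ccl1* were called without each tumor, but without the Lyve1CreCsf1rfl/fl tumor of run 2 they were at -4.82 and -4.14, without that of run 1 *Ccl1* was at -1.94, and DESeq2 did not call *Ccl1* (adjusted p = 0.272). *Prss2* and *Tcrg-C4* were not called without 3 of the tumors in turn, with adjusted p up to 0.133 and 0.227. Without the Csf1rfl/fl tumor of run 1 *Prss2* was at -7.13, *Il7r* at -3.56 and *Tcrg-C4* at -1.84, and without that of run 2 *Tcrg-C4* was at -4.08. Both neutrophil markers were lower in cells with *Klrg1*, whose sum of them was 1.78 to 3.12 UMIs per 10000 against 3.23 to 4.87, and of 4 phagocyte markers tested 0 were called; their part in the result was not tested.

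Treg cells with *Klrg1* differed from those without in few genes. Of 7664 genes, 0.222% were called, 0.144% higher and 0.0783% lower, between 419 cells with a UMI, of medians from 4502 to 5022 UMIs per tumor, and 1062 without, of medians from 3026 to 3431. *Gzmb*, for granzyme B, was higher by 0.99 (standard error 0.15, adjusted p = 0.00145), *Ccr2*, for a chemokine receptor, by 0.97 and *Ctla2a*, for a protease inhibitor, by 0.87, and these were called without each tumor. DESeq2 called 3 genes in this split, 2 of them higher, so not all of these kept the call. Without the tumor as a block 0 genes were called. In cells of 2000 to 6000 UMIs, where 4563 genes could be tested, 12 were called in place of 17 and 5 were shared, *Gzmb*, *Ccr2* and *Ctla2a* among them. *Gzma* was higher by 2.52 with all tumors, by 1.52 (adjusted p = 0.206) without the Csf1rfl/fl tumor of run 1, and by 3.21 without either tumor of run 2. *Gzma* and *Ccr2* are among the marker genes of the gates. Of the 18 genes of Treg effector function tested, 1, *Gzmb*, was called. *Klrd1*, at 0.33, *Klre1*, at 0.65, and *Klrk1*, at 0.05, the receptor genes with enough counts, were not called. *Acod1* and *Il1b*, which myeloid cells express, were lower at -2.04 and -1.08, and *G0s2*, *Marcks* and *Malat1* at -1.60, -1.37 and -0.29. Without called doublets *Il1b* was at -0.62 (adjusted p = 0.203), *Marcks* at -1.10 (adjusted p = 0.122) and *G0s2* at -0.04 (adjusted p = 0.991). *Marcks* and *Malat1* were not called without the Csf1rfl/fl tumor of run 1 (adjusted p = 0.272 and 0.0686), nor *G0s2* without either tumor of run 1 (adjusted p = 0.0616 and 0.104). *Sv2c* was higher by 0.69 and lost its call without 2 of the tumors in turn, with an adjusted p of up to 0.272. The sum of 2 neutrophil markers was 1.97 to 6.88 UMIs per 10000 in cells with *Klrg1* and 2.66 to 4.55 in cells without. That of 5 phagocyte markers was 4.45 to 7.71 against 5.86 to 8.36. Of the 2 neutrophil and 4 phagocyte markers tested 0 were called, and their part in the result was not tested.

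Between the genotypes, the question was whether the receptors changed in tumors of mice that lack *Csf1r* in LYVE-1-expressing cells. With 2 tumors of each genotype, an exact permutation test cannot give a two-sided p below 0.333, and edgeR called 0 of the 8 receptor genes in NK or CD8 T cells and 0 of the 6 tested in Treg cells, where 0.0% of 9182, 10282 and 9480 genes were called. At an unadjusted p under 0.05 there were 135, 206 and 165 genes, and DESeq2 called 0, 7 and 1. With the run as a block, which pairs the tumors captured together, edgeR called 14, 78 and 53 genes, 0 of the receptor genes among them.

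**Figure D5:**
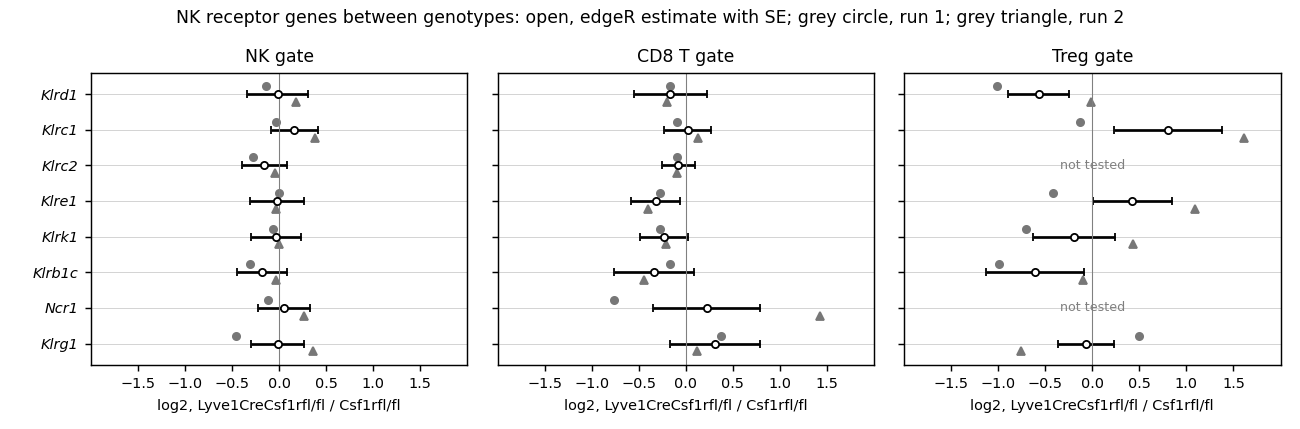
Log2 ratio of Lyve1CreCsf1rfl/fl to Csf1rfl/fl (x axis) for each NK receptor gene in NK, CD8 T and Treg cells, with the edgeR estimate and its standard error as an open circle with bars, and the ratio within run 1 and run 2 as a grey circle and triangle. All bars in NK and CD8 T cells but those of *Klre1* in CD8 T cells reach or cross 0.

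In NK cells the log2 fold changes of the 8 genes between genotypes lay between -0.18 and 0.16, with standard errors of 0.24 to 0.32. *Klrb1c* had the largest, at -0.18 (standard error 0.27), from 5.21 and 5.06 UMIs per 10000 in Csf1rfl/fl and 4.22 and 4.84 in Lyve1CreCsf1rfl/fl tumors, and was at -0.04 without the Csf1rfl/fl tumor of run 1 and -0.31 without that of run 2. These 2 pairs did not overlap, which 17.7% of all genes showed in NK cells, and it was the 1 receptor gene of which this was true. In CD8 T cells the 8 genes lay between -0.34 and 0.31, and the 2 without overlap, where 19.5% of all genes had none, were *Klre1*, at 3.76 and 3.36 against 3.15 and 2.50, and *Klrg1*, at a mean of 0.0315 against 0.0395. For *Klre1* the log2 fold change was -0.32 (standard error 0.26), and it lay between -0.61, without the Lyve1CreCsf1rfl/fl tumor of run 1, and -0.07, without that of run 2. The lymphocyte clusters that the authors removed came almost wholly from the Lyve1CreCsf1rfl/fl tumor of run 2, and the effect of this was not tested. In Treg cells *Klrg1*, the receptor gene with the highest level there, was at -0.07 (standard error 0.30), with a ratio of 0.50 on the log2 scale within run 1 and -0.76 within run 2. *Klrc2*, *Klrd1* and *Klrb1c* did not overlap between genotypes in Treg cells, where 21.6% of all genes did not. *Klrd1* was at 0.627 and 0.349 UMIs per 10000 in Csf1rfl/fl and 0.299 and 0.347 in Lyve1CreCsf1rfl/fl tumors, so that the nearest pair lay close together, and its log2 fold change was -0.02 without the Csf1rfl/fl tumor of run 1, -1.05 without that of run 2 and 0.21 without called doublets. *Klrc1* and *Klrb1c* had the widest log2 fold changes in Treg cells, at 0.80 and -0.61, with standard errors of 0.57 and 0.52. The difference between NK and CD8 T cells was also tested for a change with genotype, which was called for 0 of 9827 genes, 239 of them at an unadjusted p under 0.05, and for none of the 8 receptor genes.

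The Chromium runs were also set side by side, after the values were seen. Both tumors of run 1 had more *Klrd1* than both of run 2 in 5 of 12 gates, and the reverse held in 0. Its mean level was 13.0 UMIs per 10000 in run 1 and 10.6 in run 2 in NK cells, 10.7 and 6.61 in CD8 T cells, and 1.97 and 1.22 in monocytes and other phagocytes. *Klre1* ran the other way in NK cells, at 5.76 in run 1 and 8.46 in run 2, as did *Klrc2*, *Klrk1* and *Klrg1*. Of the 12 gates, both tumors of run 2 were higher in 5 for *Klrc1*, 4 for *Klrc2*, 4 for *Klre1* and 3 for *Klrg1*. Both tumors of run 1 were higher in 1, 0, 1 and 1 for these genes. For *Klrk1*, run 1 was higher in 4 gates and run 2 in 2, and for *Klrb1c* and *Ncr1* each run was higher in 1. Over all genes tested, both tumors of run 1 were higher for 13.6% in NK, 14.0% in CD8 T and 15.1% in Treg cells, and both tumors of run 2 for 45.0%, 46.8% and 42.3%. Since each run held 1 tumor of each genotype, the run did not coincide with the genotype.

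Genes whose levels ran most like those of a receptor over the 12 gates were named by Pearson's r of log2 CPM (UMIs scaled to a fixed total) among 8695 genes. These points share libraries and differ in depth, and the values are a description. *Klrb1c* and *Ncr1* were each the closest to the other, with r = 0.997, and the Ly49 genes *Klra9* and *Klra7*, gate markers, followed for *Klrb1c*. *Klrc1* ran most like *Fasl*, for the Fas ligand of killer cells, and *Cd160*, for another receptor, with r = 0.992 and 0.982. *Klrc2* was closest to the gate marker *Eomes*, with r = 0.984, and to *Xcl1*. *Klrk1* was closest to *Runx3*, for a RUNX factor of cytotoxic lymphocytes, with r = 0.945, and *Klrd1* to *B4galnt1*, for a ganglioside synthase, with r = 0.909. *Klrg1* was closest to *Ttn* and *Myl4*, known from muscle, and to *Gata3*, for a transcription factor of T helper and Treg cells, the latter 2 with r = 0.941 and 0.936.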

How the data were processed

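Per the labels and the study's methods, CD45+ cells of 4 tumors were captured in 2 Chromium runs with 3′ v2 chemistry, and the authors counted UMIs with Cell Ranger 6.0.1 against mm10. The deposited count tables hold raw UMI counts of each gene and raw counts of each hashtag for every barcode. A further deposited table holds scores, counts corrected by the authors with SCTransform in Seurat, and was used here only for the cells it names, which are the singlets under 5% mitochondrial UMIs that the authors kept after they removed clusters drawn almost wholly from 1 tumor, the Lyve1CreCsf1rfl/fl tumor of run 2. The paper describes the removed cells as lymphocytes rich in ribosomal gene expression, and took these clusters out of all samples. How this removal changed the receptor levels of that tumor was not tested. No cell type annotation was used.

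Each kept cell was given to the tumor with the higher hashtag of its run after a centered log ratio, and gated by marker UMIs: at least 3 of T-cell genes, at least 5 of NK genes with at most 1 of T-cell genes, and further minima for the other gates. Sums per tumor and gate were tested with edgeR 4.0.16 (quasi-likelihood, TMM, filterByExpr) in R 4.3.3, with Benjamini-Hochberg adjustment and a threshold of 0.05. Gates were compared with the tumor as a block. Genotypes were compared without a block, and with the run as a block as an alternative, since the labels number the tumors by the Chromium run they share. Alternatives were DESeq2 1.42.0, other size factors, no filter, raised gate minima, clear hashtags, no Scrublet doublets (scanpy 1.11.5, expected rate 0.2), a depth window of 2000 to 6000 UMIs and each tumor left out. The fits were tested on simulated counts. Between genotypes, a log2 change of 1 was recovered for 17% of changed genes in NK, 35% in CD8 T and 41.4% in Treg cells. It was recovered for 29.2% between γδ and CD8 T cells and for 54.6% to 96% in the other comparisons of gates and splits. A log2 change of 2 was recovered for 84.4% to 100%. Intervals of levels were not formed over cells, which are not replicates, and UMIs near background limit low values. Named genes were the 8 receptors, lists of adaptors, phosphatases, ligands, other NK receptors and effector genes, and the 5 genes with the largest called rise and fall in each split among those of 1 direction in every tumor. The receptors and lists were chosen with earlier results of these data known.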

Additional observations from a re-analysis of the deposited data

How the results depend on the processing

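Each called receptor result was counted once for every alternative in which it was fitted. Under the alternatives other than leaving out a tumor, 182 of 200 such fits kept direction and call and 18 lost the call. Of the 110 fits with 1 tumor left out, 103 kept both and 7 lost the call. With DESeq2, 1539 genes were called between NK and CD8 T cells in place of 2651, 579 between γδ and CD8 T cells in place of 996, 1107 between CD8 and CD4 T cells in place of 1988, 209 between Treg and CD4 T cells in place of 557, and 33, 3 and 215 in the *Klrg1* splits of NK and Treg cells and the *Klrd1* split of CD8 T cells, in place of 93, 17 and 326. It called 7 genes between genotypes in CD8 T cells and 1 in Treg cells. Without the replicate block, the counts were 1037 between CD8 and CD4 T cells, 123 between Treg and CD4 T cells, and 2, 0 and 14 in the 3 splits. With the run as a replicate block, 14, 78 and 53 genes were called between genotypes in NK, CD8 T and Treg cells, and *Klrd1* in NK cells turned to 0.013. With no filter, 156 and 75 genes were called in the *Klrg1* splits and 17, 87 and 32 between genotypes. In cells of 2000 to 6000 UMIs, 60 genes were called in the *Klrg1* split of NK cells and 73 in the *Klrd1* split, and in the first *Klrc2* turned to 0.27 and *Klrk1* to 0.033. Without called doublets, the genotype difference turned to 0.0018 for *Klrg1* and -0.0018 for *Ncr1* in NK cells, -0.033 for *Klrc1* in CD8 T cells, and 0.21 for *Klrd1* and 0.56 for *Klrk1* in Treg cells. The cause of these changes was not tested.

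Leaving out each tumor gave 1779 to 2309 called genes between NK and CD8 T cells, 601 to 848 between γδ and CD8 T cells, 1386 to 1714 between CD8 and CD4 T cells and 242 to 512 between Treg and CD4 T cells. It gave 48 to 119, 7 to 35 and 83 to 323 in the 3 splits, and 4 to 36, 6 to 75 and 11 to 32 between genotypes in NK, CD8 T and Treg cells. The lone tumor of a genotype is then assumed to vary like the pair. Values that changed sign ranged from -0.058 to 0.18 for *Hcst* between NK and CD8 T cells, -0.0035 to 0.17 for *Ncr1* in the *Klrg1* split of NK cells and -0.071 to 0.21 for *Klrk1* in that of Treg cells. Between genotypes in NK cells they ranged from -0.30 to 0.36 for *Klrd1*, -0.10 to 0.043 for *Klrk1*, -0.36 to 0.27 for *Klrg1*, -0.20 to 0.36 for *Ncr1* and -0.185 to 0.17 for *Klre1*. In CD8 T cells they ranged from -0.22 to 0.30 for *Klrc1*, -0.71 to 0.34 for *Klrd1*, -0.46 to 0.027 for *Klrk1*, -0.97 to 0.16 for *Klrb1c* and -0.34 to 1.43 for *Ncr1*, and in Treg cells from -0.12 to 1.885 for *Klrc1*, -0.90 to 0.65 for *Klrk1*, -0.65 to 0.34 for *Klrg1* and -0.045 to 0.82 for *Klre1*. Of the gates tested, γδ T cells were the fewest, with 17 cells in the smallest tumor, and a genotype difference that was not called does not show equal levels.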

Other observations

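T cells outside the named T-cell gates and cells in no gate also held these receptors. In the 1660 other T cells *Klrd1* was at 4.73 UMIs per 10000, *Klrb1c* at 0.796, *Ncr1* at 0.424 and *Klrg1* at 0.305. In the 2337 cells in no gate, whose median was 1960 UMIs, *Klrd1* was at 3.15, *Klrb1c* at 0.561 and *Ncr1* at 0.402. The 2510 cells of mixed class had *Klrd1* at 3.45.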
